A study of Mus musculus with 6 samples.

Results

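The 9 genes described here encode lysophospholipid acyltransferases of the Lands cycle: Lpcat1, Lpcat2, Lpcat3, Lpcat4, Mboat1, Mboat2, Mboat7, Lclat1 and Lpgat1. They were taken by symbol from the 54347 gene rows of the deposited table, and each symbol stood on 1 row. Values are TPM, length-corrected transcript abundances with one fixed total for every library, so the sequencing depth behind a value is unknown here. With a mean of at least 1 TPM over all libraries, 8 of the 9 were tested, and Mboat2 was not.

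The libraries came from primary microglia, the macrophages that live in the brain, of C57BL/6 mice that were Plcg2+/+ (3 libraries) or Plcg2-/- littermates (3 libraries). Cells were grown out of forebrains taken at postnatal day 2 to 3, in mixed glial cultures with 10% serum and the growth factor GM-CSF at 5 ng/mL, and were shaken off on day 12 to 13. Both genotypes then rested, untreated, for no less than 72 h with serum lowered to 1% and GM-CSF to 0.5 ng/mL. A library is named by its genotype and number, as in Plcg2-/- 2. The labels do not say whether replicates were separate animals or cultures, so p-values reflect only how far these samples spread, and part of that spread may be technical.

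Membrane phospholipids are remodelled after they are made. In the Lands cycle a phospholipase removes a fatty acid, usually from the middle carbon of the glycerol, and an acyltransferase puts another one back from acyl-CoA. The acyltransferases differ in the head group they accept and in the fatty acid they prefer, and so set which phospholipids hold arachidonate, the precursor of the eicosanoids and endocannabinoids named in the series title. They belong to a pair of unrelated protein families. Lpcat1, Lpcat2, Lpcat4, Lclat1 and Lpgat1 are of the AGPAT type, and Lpcat3, Mboat1, Mboat2 and Mboat7 are membrane-bound O-acyltransferases (MBOAT).

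Plcg2, the targeted gene, was at 39.7 to 54.9 TPM in Plcg2+/+ and at 16.0 to 16.7 TPM in Plcg2-/- libraries (limma adjusted p = 0.00141). Of 12 microglial markers, 10 had a mean of at least 1 TPM. Csf1r had a mean of 580 TPM in Plcg2+/+, whereas Sall1 and Tmem119, which define microglia in the intact brain, had means of 0.256 and 0.917 TPM in Plcg2+/+ and 0.206 and 0.279 TPM in Plcg2-/-. P2ry12 rose from 5.68 to 23.8 TPM and Cx3cr1 fell from 2.06 to 0.244 TPM (limma adjusted p = 0.0166 and 0.0203). Summed markers of other cells were lower: 30.4 to 60.5 and 43.0 to 59.6 TPM for 8 astrocyte markers in Plcg2+/+ and Plcg2-/-, 70.7 to 138 and 93.2 to 127 for 10 of the oligodendrocyte lineage, 3.94 to 14.7 and 5.72 to 12.0 for 8 of neurons, and 17.8 to 38.8 and 26.7 to 37.2 for 8 of vessels. The 6 fibroblast markers summed to 3.00 to 7.45 and 0.284 to 2.99 TPM and 6 of neutrophils, with Ly6g and Elane at 0 throughout, to 19.4 to 75.0 and 24.4 to 47.3. The 8 lymphocyte markers, with Cd3e and Cd3g at 0 throughout, summed to 0.389 to 0.728 and 2.16 to 5.88 TPM, with Cd4 the highest. The lymphocyte and fibroblast sums did not overlap between genotypes, and their part in the results below was not tested. Mitochondrially encoded genes took 15.5 ± 1.87% of summed TPM in Plcg2+/+ and 7.30 ± 2.01% of it in Plcg2-/- libraries (SD, n = 3 each; two-sided exact permutation p = 0.1, the smallest possible with 3 against 3). TPM of all genes share a fixed total. The median log2 fold change of the 12652 tested genes was 0.19 and became -0.0045 after median-of-ratios scaling. The mean log2(TPM + 1) of 4 Y-linked genes was 0.120, 4.20 and 4.10 in Plcg2+/+ 1, 2 and 3 and 3.54, 0.254 and 0.298 in Plcg2-/- 1, 2 and 3. Y-linked transcripts come from male cells, so libraries of the same genotype differed in sex make-up. Sex was also not balanced between genotypes. In every pair of libraries with the same number, 1 had a high and the other a low Y-linked level. Differences between libraries of the same number therefore also cross sex make-up.

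Of the 8 tested acyltransferases, Mboat1 and Lpcat2 were higher and Lpcat1 and Mboat7 lower in Plcg2-/- microglia, while Lpcat3, Lpcat4, Lclat1 and Lpgat1 did not pass the test (limma on log2(TPM + 1), adjusted p below 0.05 over all tested genes). Of all tested genes 20.9% passed, 15.6% as higher and 5.31% as lower. The 4 genes that passed were also the 4 whose libraries did not overlap between genotypes, as was so for 43.3% of all tested genes. Each protein family had 1 gene that rose and 1 that fell. The median log2 fold change of the 8 was -0.08, against 0.19 for all tested genes. In bulk RNA, a change in the share of cells that express a gene and a change in its level per cell cannot be told apart.

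**Figure D1:**
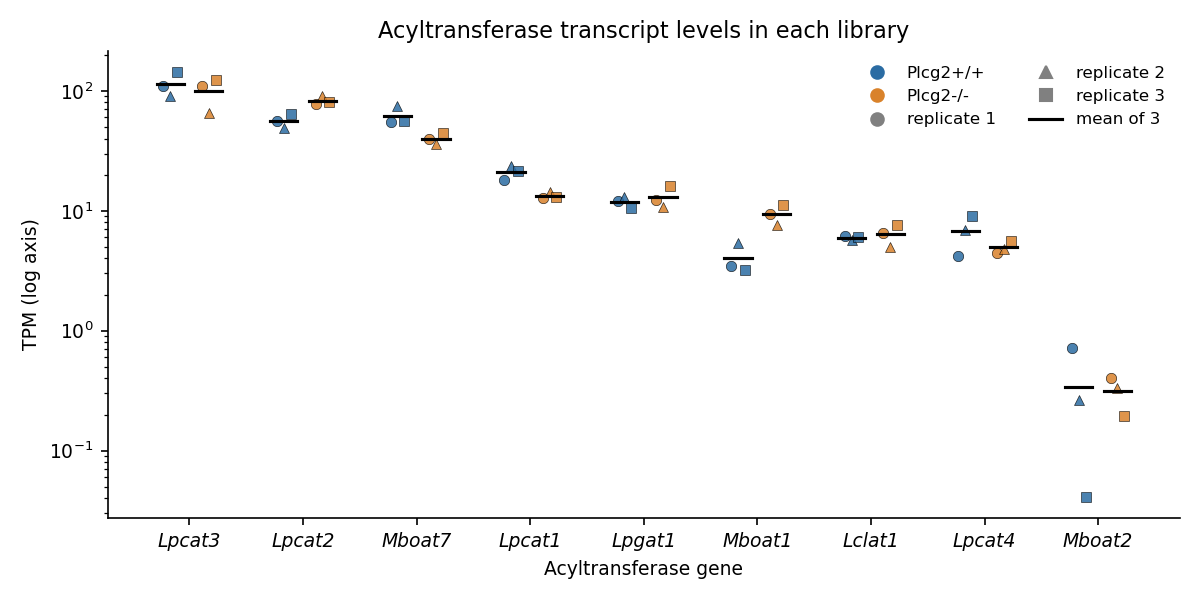
TPM of the 9 acyltransferase genes (log axis) in each library, blue for Plcg2+/+ and orange for Plcg2-/-, with marker shapes for replicate numbers and a black bar at each mean of 3. Genes are ordered by their mean over all libraries; the points of the genotypes are apart for Lpcat2, Mboat7, Lpcat1 and Mboat1 and overlap for the other 5.

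The stretches before the starts of 3 of the 4 genes that passed are shown here, since a transcript's start region is where members that moved together or apart could be compared. They are from the RefSeq promoter table for GRCm38.p6 (250 bases before to 50 after the start), cut at the first annotated start and read 5′ to 3′, with CG dinucleotides in capitals. Lpcat2 and Mboat1 rose, and Lpcat1 fell.
Lpcat2: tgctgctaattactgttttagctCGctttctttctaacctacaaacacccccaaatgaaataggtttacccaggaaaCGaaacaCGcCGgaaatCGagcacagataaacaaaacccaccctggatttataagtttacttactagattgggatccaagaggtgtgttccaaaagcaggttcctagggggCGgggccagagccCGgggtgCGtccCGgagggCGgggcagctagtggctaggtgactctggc
Mboat1: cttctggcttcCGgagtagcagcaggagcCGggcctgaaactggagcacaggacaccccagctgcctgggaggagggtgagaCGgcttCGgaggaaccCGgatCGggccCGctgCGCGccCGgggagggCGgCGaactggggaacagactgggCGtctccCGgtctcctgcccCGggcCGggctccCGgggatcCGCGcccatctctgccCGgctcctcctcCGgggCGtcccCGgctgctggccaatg
Lpcat1: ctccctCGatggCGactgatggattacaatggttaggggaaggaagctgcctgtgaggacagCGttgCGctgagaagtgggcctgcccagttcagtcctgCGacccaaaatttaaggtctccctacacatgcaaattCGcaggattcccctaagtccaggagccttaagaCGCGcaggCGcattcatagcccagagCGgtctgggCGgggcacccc
The Lpcat2 stretch is chr8:92855083-92855332, the Mboat1 stretch chr13:30136240-30136488 and the Lpcat1 stretch chr13:73466981-73467196, all on the plus strand. That of Mboat7 is not printed because its window lies inside the gene's annotated span. All 9 genes matched the table, Lpgat1 with 2 windows. Over the whole window of 300 bases, Lpcat2 had 54.7% G and C and 15 CG dinucleotides, Mboat7 58.3% and 23, Lpcat1 64.0% and 25 and Mboat1 74.3% and 29, against medians of 52.7% and 7 over 32851 windows. The genes that rose thus had both the lowest and the highest CG content of these 4. No window of the 9 genes held the interferon-response core GAAANNGAA, the sterol element TCACCCCAC or the E-box CACGTG on either strand, which 8.56%, 0.551% and 7.15% of all windows held. Whether factors that bind such letters act on these genes was not measured.

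Lpcat1 and Lpcat2 are related enzymes that both re-acylate lysophosphatidylcholine, and they moved in opposite directions. Lpcat1 prefers saturated fatty acids and is best known for making the lipid of lung surfactant. Its gene (ENSMUSG00000021608.15, protein coding, plus strand) spans positions 73467197 to 73516422 of chromosome 13 on GRCm38. Lpcat1 was at 18.2, 23.7 and 21.4 TPM in Plcg2+/+ 1, 2 and 3 and at 12.8, 14.4 and 13.0 TPM in Plcg2-/- 1, 2 and 3. Every Plcg2-/- library was below every Plcg2+/+ library. The mean went from 21.1 ± 2.77 to 13.4 ± 0.905 TPM (SD, n = 3 each), a log2 fold change of -0.61 ± 0.13 (SE; limma adjusted p = 0.0205). Between libraries of the same number the log2 difference was -0.48, -0.68 and -0.68. Its adjusted p was 0.0642, 0.0911 and 0.0770 without Plcg2+/+ 2, Plcg2-/- 1 and Plcg2-/- 3, and 0.0687 with a covariate for the Y-linked level.

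Lpcat2 adds either a long-chain fatty acid or an acetyl group, the latter giving platelet-activating factor, and is the form known to be induced in stimulated macrophages. Its gene (ENSMUSG00000033192.5, protein coding, plus strand) spans positions 92855339 to 92919279 of chromosome 8. Lpcat2 was at 56.5, 48.5 and 64.4 TPM in the Plcg2+/+ libraries and at 77.2, 90.0 and 81.0 TPM in the Plcg2-/- libraries. The lowest Plcg2-/- library stood above the highest Plcg2+/+ library. The mean rose from 56.5 ± 7.93 to 82.8 ± 6.56 TPM (SD, n = 3 each), a log2 fold change of 0.55 ± 0.13 (SE; limma adjusted p = 0.0307), of which 0.36 lay above the median of all tested genes. This call depended on scale: after median-of-ratios scaling, which called 7.71% of tested genes higher and 7.85% lower, the log2 fold change of Lpcat2 was 0.34 (limma adjusted p = 0.108), and it was 0.25 after quantile normalization (limma adjusted p = 0.215). Its adjusted p was also 0.0681 on TPM rescaled without mitochondrially encoded genes, 0.0575 with no filter on low values, 0.0941 with a covariate for the Y-linked level, and between 0.0708 and 0.0920 without any 1 library other than Plcg2+/+ 3. An annotated antisense gene, Gm45472, overlaps the Lpcat2 gene by 996 bases and had means of 0.616 and 0.897 TPM. The sources used here do not say whether counting used strand.

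A ratio of TPM within a library does not depend on how libraries are scaled. Lpcat2 over Lpcat1 was 3.11, 2.05 and 3.02 in Plcg2+/+ 1, 2 and 3 and 6.04, 6.24 and 6.25 in Plcg2-/- 1, 2 and 3. The mean ratio was 2.72 ± 0.588 in Plcg2+/+ and 6.18 ± 0.117 in Plcg2-/- (SD, n = 3 each). Every Plcg2-/- ratio was above every Plcg2+/+ ratio, and the lowest was that of Plcg2+/+ 2. No test is given, since the direction of each gene was known when the ratio was chosen.

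Lpcat3 carries polyunsaturated fatty acids, arachidonate among them, into phosphatidylcholine and phosphatidylethanolamine, and is a known target gene of the liver X receptors (LXR). It had the highest mean of the 9 genes in both genotypes. Lpcat3 (ENSMUSG00000004270.13, chromosome 6, 124663027 to 124704418, plus strand) was at 109, 90.5 and 144 TPM in the Plcg2+/+ libraries and at 109, 65.9 and 123 TPM in the Plcg2-/- libraries. The genotypes overlapped, and the library numbered 2 was the lowest and that numbered 3 the highest in each. Means were 114 ± 26.9 and 99.3 ± 29.7 TPM (SD, n = 3 each), and the log2 fold change was -0.23 with a 95% interval of -0.86 to 0.41 (limma adjusted p = 0.576). The log2 fold change was -0.44 after median-of-ratios scaling (limma adjusted p = 0.246), -0.51 after quantile normalization (limma adjusted p = 0.189), -0.36 without mitochondrially encoded genes (limma adjusted p = 0.383), and 0.04 and -0.05 without Plcg2-/- 2 and Plcg2+/+ 3. The interval holds both a rise and a fall, so these libraries do not show that Lpcat3 was unaltered. The Lpcat3 gene overlaps Emg1, on the opposite strand, by 334 bases, and Emg1 had means of 62.4 and 60.8 TPM.

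Lpcat4, which acts on lysophosphatidylcholine and lysophosphatidylethanolamine with oleoyl-CoA, was at 4.18, 6.93 and 9.04 TPM in Plcg2+/+ 1, 2 and 3 and at 4.43, 4.83 and 5.62 TPM in Plcg2-/- 1, 2 and 3. Its Plcg2+/+ libraries spread more widely than its Plcg2-/- libraries, and the lowest value was in Plcg2+/+ 1. The log2 fold change was -0.33 with a 95% interval of -0.92 to 0.26 (limma adjusted p = 0.378). It was -0.59 without Plcg2+/+ 1 (limma adjusted p = 0.102), -0.11 without Plcg2+/+ 3 (limma adjusted p = 0.749) and -0.19 with the Y-linked covariate (limma adjusted p = 0.646). Lpcat4 (ENSMUSG00000027134.4) lies on chromosome 2, positions 112239468 to 112247111, plus strand.

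Among the enzymes for lysophosphatidylethanolamine and lysophosphatidylserine, Mboat1 rose and Mboat2 was below 1 TPM in every library. Mboat1 attaches mainly oleate to these lysophospholipids, and its rise was the largest change among the 8 tested genes. Mboat1 (ENSMUSG00000038732.15, chromosome 13, 30136489 to 30246717, plus strand) was at 3.45, 5.42 and 3.22 TPM in Plcg2+/+ 1, 2 and 3 and at 9.39, 7.61 and 11.1 TPM in Plcg2-/- 1, 2 and 3. The groups were apart, with Plcg2+/+ 2 and Plcg2-/- 2 nearest to each other. The mean went from 4.03 ± 1.21 to 9.36 ± 1.75 TPM (SD, n = 3 each), 2.32 times as high, with a log2 fold change of 1.06 ± 0.21 (SE; limma adjusted p = 0.0174). Between libraries of the same number the log2 difference was 1.22, 0.42 and 1.52. Mboat1 also passed after median-of-ratios scaling (0.87, limma adjusted p = 0.0430) and with a covariate for the Y-linked level (limma adjusted p = 0.0462), but not without Plcg2+/+ 1, Plcg2-/- 1 or Plcg2-/- 3 (limma adjusted p = 0.0686, 0.0790 and 0.0692). Mboat2, a closely related enzyme that uses oleate with lysophosphatidylcholine and lysophosphatidylethanolamine, was at 0.715, 0.263 and 0.0414 TPM in the Plcg2+/+ libraries and at 0.405, 0.334 and 0.195 TPM in the Plcg2-/- libraries. These values overlapped. Mboat2 (ENSMUSG00000020646.17) lies on chromosome 12, positions 24830879 to 24964397, plus strand.

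Mboat7 is the enzyme that places arachidonate on lysophosphatidylinositol, and so sets the fatty acid make-up of phosphatidylinositol, the parent lipid of the lipid that phospholipase C gamma cleaves. Mboat7 (ENSMUSG00000035596.14, chromosome 7, 3677789 to 3693523, minus strand) was at 54.6, 74.1 and 56.4 TPM in Plcg2+/+ 1, 2 and 3 and at 39.3, 36.0 and 44.7 TPM in Plcg2-/- 1, 2 and 3. All Plcg2-/- libraries were below all Plcg2+/+ libraries, and Plcg2+/+ 2 stood above the rest. The mean went from 61.7 ± 10.8 to 40.0 ± 4.39 TPM (SD, n = 3 each), a log2 fold change of -0.60 ± 0.15 (SE; limma adjusted p = 0.0344), and the log2 difference between libraries of the same number was -0.46, -1.02 and -0.33. After median-of-ratios scaling it fell by 0.82 (limma adjusted p = 0.0198). Leaving out any 1 library other than Plcg2+/+ 3 gave an adjusted p of 0.0654 to 0.120, no filter on low values 0.0698 and the Y-linked covariate 0.0999. Without Plcg2+/+ 2 the log2 fold change was -0.47.

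Mboat7 shares its start region with Tsen34, a subunit gene of the tRNA splicing endonuclease: the annotated genes run in opposite directions, overlap by 661 bases and begin 660 bases apart. Tsen34 was at 45.5, 40.4 and 52.9 TPM in the Plcg2+/+ libraries and at 62.0, 55.0 and 60.9 TPM in the Plcg2-/- libraries. It was thus higher in every Plcg2-/- library, with a log2 fold change of 0.36 ± 0.13 (SE), and did not pass (limma adjusted p = 0.0907). Reads in the shared bases could be assigned to either gene, and the sources used here do not say how they were assigned.

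Lclat1 acts on lysocardiolipin and, on phosphatidylinositol, adds the stearate that sits beside arachidonate. Lclat1 (ENSMUSG00000054469.14, chromosome 17, 73107985 to 73243368, plus strand) was at 6.19, 5.71 and 6.01 TPM in the Plcg2+/+ libraries and at 6.51, 5.02 and 7.54 TPM in the Plcg2-/- libraries. The Plcg2-/- values lay on both sides of the Plcg2+/+ values, and the log2 fold change was 0.06 with a 95% interval of -0.32 to 0.44 (limma adjusted p = 0.804). Lpgat1, first described with lysophosphatidylglycerol, was at 12.1, 13.0 and 10.5 TPM in Plcg2+/+ and at 12.2, 10.7 and 16.2 TPM in Plcg2-/-. Its libraries overlapped too, and the log2 fold change was 0.11 with a 95% interval of -0.29 to 0.52 (limma adjusted p = 0.671). Lpgat1 (ENSMUSG00000026623.16) lies on chromosome 1, positions 191717834 to 191784255, plus strand. The ratio of Mboat7 to Lclat1, the acyltransferases that fill neighbouring carbons of phosphatidylinositol, was 8.81, 13.0 and 9.39 in Plcg2+/+ and 6.04, 7.18 and 5.93 in Plcg2-/-. Those ratios did not overlap.

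**Figure D2:**
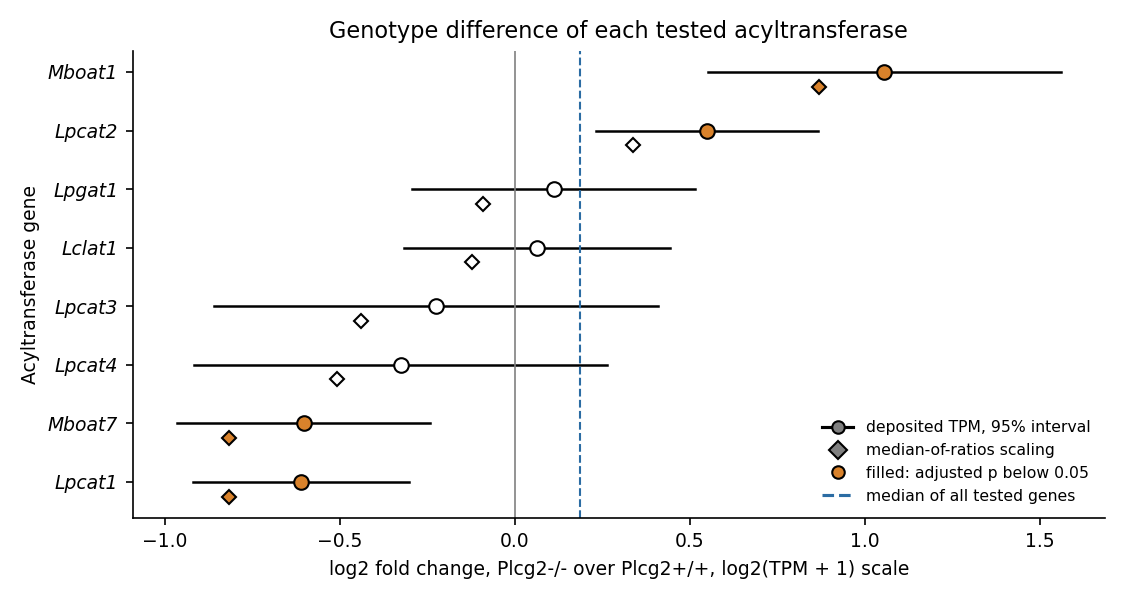
Log2 fold change, Plcg2-/- over Plcg2+/+, of the 8 tested acyltransferases on the log2(TPM + 1) scale: circles with 95% intervals for deposited TPM and diamonds for median-of-ratios scaling, filled where the limma adjusted p was below 0.05. The dashed line is the median of all tested genes, 0.19; Lpcat2 is filled only as a circle.

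The summed TPM of the 9 genes overlapped between genotypes, while Lpcat2 and Mboat7 took different shares of it. The sum was 265, 268 and 315 TPM in Plcg2+/+ 1, 2 and 3 and 272, 235 and 302 TPM in Plcg2-/- 1, 2 and 3. Lpcat2 was 21.3%, 18.1% and 20.5% of the sum in Plcg2+/+ and 28.4%, 38.3% and 26.8% in Plcg2-/-. Mboat7 was 20.6%, 27.6% and 17.9% in Plcg2+/+ and 14.5%, 15.3% and 14.8% in Plcg2-/-. Lpcat2 held a larger and Mboat7 a smaller share in every Plcg2-/- library. Lpcat3 held 40.2 ± 6.01% and 36.3 ± 7.15% (SD, n = 3 each), and its lowest share was that of Plcg2-/- 2, at 28.1%. Lpcat1 went from 7.49 ± 1.16% to 5.05 ± 0.973% and Mboat1 from 1.45 ± 0.515% to 3.46 ± 0.218% (SD, n = 3 each). Shares of 1 sum are not independent of each other.

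**Figure D3:**
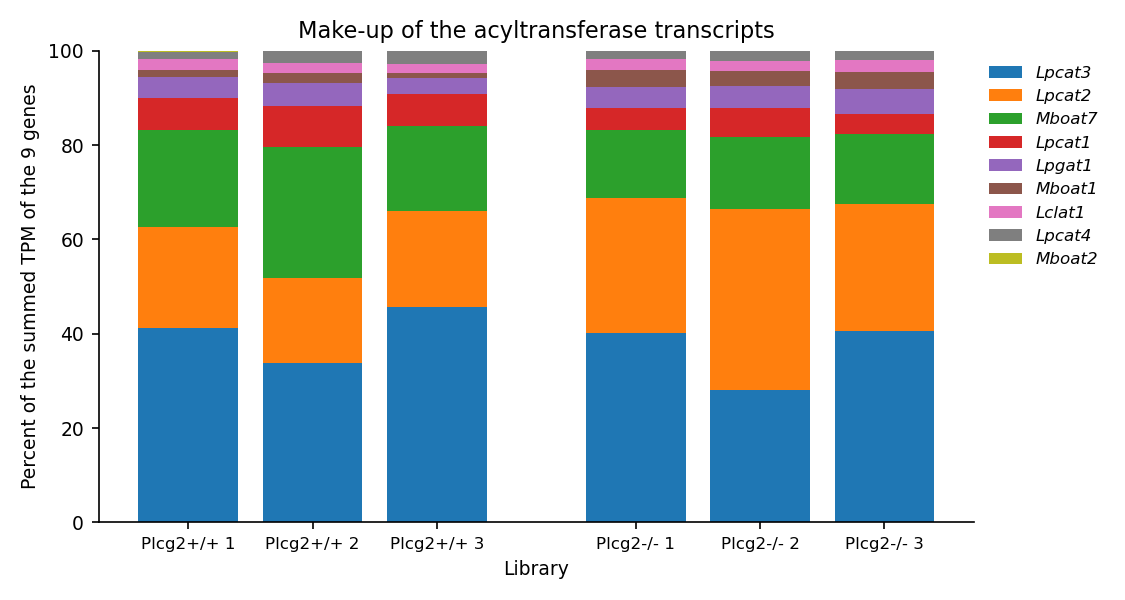
Each acyltransferase's percent of the summed TPM of the 9 genes in each library, as stacked bars, with Plcg2+/+ on the left and Plcg2-/- on the right. Lpcat2 (orange) makes up 18.1% to 21.3% of the Plcg2+/+ bars and 26.8% to 38.3% of the Plcg2-/- bars, and Mboat7 (green) 17.9% to 27.6% and 14.5% to 15.3%.

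In Plcg2+/+ microglia it ran Lpcat3, Mboat7, Lpcat2, Lpcat1, Lpgat1, Lpcat4, Lclat1, Mboat1 and Mboat2. Mboat7 was above Lpcat2 in 1 of 3 libraries there, and Lpcat4 above Lclat1 in 2 of 3, so the libraries do not separate those neighbours; all other neighbours had ranges apart. In Plcg2-/- microglia it ran Lpcat3, Lpcat2, Mboat7, Lpcat1, Lpgat1, Mboat1, Lclat1, Lpcat4 and Mboat2. Lpcat3 was above Lpcat2 in 2 of 3 of these libraries and below it in Plcg2-/- 2, while Lpcat2 was above Mboat7 in 3 of 3 with ranges apart. Lpcat1 was above Lpgat1 in 2 of 3 Plcg2-/- libraries, and the ranges of Lpgat1 and Mboat1, and of Lclat1 and Lpcat4, also overlapped.

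Likeness of pattern was measured as Pearson's r of log2(TPM + 1) over the 6 libraries, which fall into the 2 genotypes, so genes that differ between genotypes resemble each other by that alone. Among the 8 tested acyltransferases, Lpcat1 was most like Mboat7 (r = 0.901) and Lpcat2 most like Mboat1 (r = 0.667), and Lclat1 and Lpgat1 were each most like the other (r = 0.788). The most unlike pair was Lpcat2 and Mboat7 (r = -0.951). Lpcat3 was most like Lclat1 (r = 0.718) and Lpcat4 most like Lpcat1 (r = 0.649). Sex-linked and predicted genes were left out of the comparison with other genes. Among the remaining 8071 protein-coding genes with a mean of at least 5 TPM, the 3 most like Lpcat1 were Tle2, Haghl and Gtf2a1, of 85 with r above 0.95. For Lpcat2 they were Cars2, Ang and Marcksl1, of 199. Those most like Mboat1 were Slc35b2, Trim47 and Btaf1, of 80, and Midn and Ergic1 were the closest to Mboat7, of 66. The lowest r among the genes named here was 0.989. Cars2, Slc35b2, Btaf1, Midn and Ergic1 did not themselves pass between genotypes (limma adjusted p = 0.0549 to 0.130).

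Genes that make and clear lysophospholipids, the substrates of the 9 enzymes, moved both ways. Ddhd1, a phospholipase that acts on phosphatidic acid and phosphatidylinositol, rose from 105 ± 17.5 to 205 ± 32.6 TPM, and Plbd1 and Plbd2, phospholipase B-like lysosomal proteins, from 5.17 ± 0.598 to 12.6 ± 3.72 and from 55.6 ± 7.29 to 78.5 ± 5.06 TPM. Abhd3, a phospholipase that acts on phosphatidylcholines with medium-chain fatty acids, fell from 12.7 ± 1.92 to 6.13 ± 1.18 TPM (SD, n = 3 each), with a limma adjusted p of at most 0.0356. Abhd16a also rose and Pnpla6 and Pnpla7 also fell. The cytosolic phospholipase gene Pla2g4a was at 22.0 ± 3.17 and 33.9 ± 7.42 TPM and did not pass (limma adjusted p = 0.0717). Of 18 tested genes of the list 4 were higher and 3 lower (22.2% and 16.7%, against 15.6% and 5.31% of all tested genes), with a median log2 fold change of 0.14, and after median-of-ratios scaling 2 were higher and 4 lower. With 1 library left out the counts, higher and lower, were 1 and 1 (Plcg2+/+ 1), 1 and 1 (Plcg2+/+ 2), 2 and 2 (Plcg2+/+ 3), 1 and 0 (Plcg2-/- 1), 4 and 2 (Plcg2-/- 2) and 0 and 1 (Plcg2-/- 3).

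In the list of genes that make, move, alter or break down acyl-CoA, the other substrate, 4 genes fell and 1 rose. Slc27a1, a fatty acid transport protein, fell from 80.9 ± 11.9 to 46.9 ± 2.60 TPM, Acsl3, an acyl-CoA synthetase, from 21.2 ± 2.29 to 12.2 ± 1.44 TPM, and Elovl7, a fatty acid elongase, from 2.93 ± 0.239 to 0.809 ± 0.281 TPM. Fads1, a desaturase needed to make arachidonate, fell from 62.5 ± 4.43 to 46.3 ± 3.91 TPM (SD, n = 3 each), with a limma adjusted p of at most 0.0387. Acsl4, the synthetase that prefers arachidonate, did not pass at 34.9 ± 2.46 and 30.5 ± 3.30 TPM (limma adjusted p = 0.290). Of 22 tested genes 1 was higher (Acot7, an acyl-CoA thioesterase, which breaks acyl-CoA down) and 4 lower. These were 4.55% and 18.2%, against 15.6% and 5.31% of all tested genes, and the median log2 fold change was -0.23. The counts were 0 and 8 after median-of-ratios scaling, which called 7.71% of all tested genes higher and 7.85% lower. They were 3 and 6 with the replicate block, a fit that called 26.1% of all tested genes. Leaving out Plcg2+/+ 3 gave 3 and 3, leaving out Plcg2-/- 1 gave 0 and 2, and leaving out any other library gave 0 and 3.

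De novo synthesis, which builds phospholipids from glycerol phosphate, had 4 of 29 tested genes higher and 1 lower (13.8% and 3.45%, both below the shares of all tested genes), with a median log2 fold change of 0.04. Etnk1, an ethanolamine kinase, rose from 19.4 ± 1.46 to 46.8 ± 10.6 TPM, Cds1, a CDP-diacylglycerol synthase on the route to phosphatidylinositol, from 14.0 ± 0.943 to 23.7 ± 2.63, and Lpin2, a phosphatidate phosphatase, from 29.3 ± 4.61 to 44.7 ± 3.25. Selenoi, an ethanolamine phosphotransferase, fell from 8.41 ± 0.619 to 5.28 ± 0.274 TPM (SD, n = 3 each), with a limma adjusted p of at most 0.0274. Etnk1 and Selenoi, steps of the same route to phosphatidylethanolamine, thus went in opposite directions. Cept1, which also encodes an ethanolamine phosphotransferase, rose from 101 ± 7.27 to 138 ± 15.1 TPM (SD, n = 3 each; limma adjusted p = 0.0435). Selenoi and Cept1, genes for the same last step, thus differed in direction in the main fit. Cept1 did not pass after median-of-ratios scaling or with the Y-linked covariate. Selenoi did not pass with that covariate (limma adjusted p = 0.0594) or without Plcg2+/+ 1, Plcg2-/- 1 or Plcg2-/- 3. Counts were 2 and 3 after median-of-ratios scaling and 6 and 2 with the replicate block. Leaving out Plcg2+/+ 1 gave 2 and 0, Plcg2+/+ 2 gave 2 and 1, Plcg2-/- 1 gave 1 and 0, and Plcg2-/- 3 gave 2 and 0.

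Platelet-activating factor, the product of Lpcat2's acetyl transfer, is an ether lipid. Of 12 tested ether lipid and platelet-activating factor genes 3 were higher and 1 lower. These were 25% and 8.33%, against 15.6% and 5.31% of all tested genes, and the median log2 fold change was 0.15. Agmo, which cleaves ether lipids, rose from 13.1 ± 1.40 to 18.7 ± 0.134 TPM, and Pafah1b1 and Pafah1b2, subunits of an intracellular acetylhydrolase of platelet-activating factor, from 41.7 ± 1.27 to 56.9 ± 4.64 and from 18.1 ± 3.92 to 33.6 ± 7.96. Tmem189, the desaturase that makes plasmalogens, fell from 228 ± 25.6 to 151 ± 13.3 TPM (SD, n = 3 each), with a limma adjusted p of at most 0.0377. Ptafr, the receptor of platelet-activating factor, was at 67.4 ± 22.3 and 53.5 ± 0.447 TPM and Pla2g7, the secreted acetylhydrolase, at 710 ± 297 and 720 ± 240 TPM; neither passed (limma adjusted p = 0.436 and 0.916). Counts were 0 and 1 after median-of-ratios scaling and 0 and 0 without any 1 of Plcg2+/+ 1, Plcg2+/+ 2, Plcg2-/- 1 or Plcg2-/- 3. They were 3 and 2 without Plcg2+/+ 3.

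Of the MBOAT enzymes that do not act on lysophospholipids, Dgat1, which makes triglyceride, fell from 83.3 ± 21.1 to 29.5 ± 3.22 TPM (SD, n = 3 each). Its log2 fold change was -1.44 ± 0.19 (SE; limma adjusted p = 0.00377). It was the 1 of 4 tested genes that passed, or 25% lower, against 5.31% of all tested genes. Soat1, which esterifies cholesterol, was at 461 ± 63.2 and 298 ± 63.6 TPM (limma adjusted p = 0.0586) and passed after median-of-ratios scaling, where 2 of the 4 were lower. In the list of LXR and SREBP1 genes, to which Lpcat3 is linked by its control, 2 of 14 tested genes were higher and 1 lower. These were 14.3% and 7.14%, near the 15.6% and 5.31% of all tested genes, and the median log2 fold change was 0.12. The genes called higher were those of receptors. Nr1h2, an LXR gene, went from 77.2 ± 1.02 to 96.7 ± 0.621 TPM (SD, n = 3 each; limma adjusted p = 0.0458). Rxra, its partner receptor, went from 42.5 ± 5.70 to 60.3 ± 5.85 TPM (SD, n = 3 each; limma adjusted p = 0.0432). Neither passed after median-of-ratios scaling (limma adjusted p = 0.477 and 0.116), and Nr1h2 lost its call whichever 1 library was left out. Lpl, lipoprotein lipase, is a target in this list and fell from 3343 ± 740 to 368 ± 62.0 TPM (limma adjusted p = 0.000717; SD, n = 3 each). The other targets in the list did not pass, Abca1 and Srebf1 among them (limma adjusted p = 0.599 and 0.325), and neither did Lpcat3. Log2 fold changes of the targets that did not pass ran from -1.01 for Scd2 to 0.48 for Acaca (limma adjusted p = 0.0733 and 0.184). Control by LXR or SREBP1 was not tested. After median-of-ratios scaling 0 of the 14 were higher and 2 lower, with the replicate block 1 and 2, and without any 1 of Plcg2+/+ 1, Plcg2+/+ 2, Plcg2-/- 1 or Plcg2-/- 3 the counts were 0 and 1.

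From each list, up to 4 genes that passed with the smallest p were named, 20 in all. Of these 20, 5 passed without each library in turn (Slc27a1, Elovl7, Etnk1, Dgat1 and Lpl), and 13 passed after median-of-ratios scaling. With a covariate for the Y-linked level 10 passed. Plbd2, Fads1 and Nr1h2 lost their call whichever 1 library was left out, and Lpin2 and Agmo kept it only without Plcg2+/+ 3. Each of the 4 acyltransferases that passed lost its call without at least 1 library. Over all tested genes 2643 passed in the main fit and 1217 with the Y-linked covariate. Without Plcg2+/+ 1, 2 and 3 in turn 1109, 1349 and 2750 passed, and without Plcg2-/- 1, 2 and 3 in turn 835, 2381 and 1183. Most of these settings thus called fewer genes throughout.

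**Figure D4:**
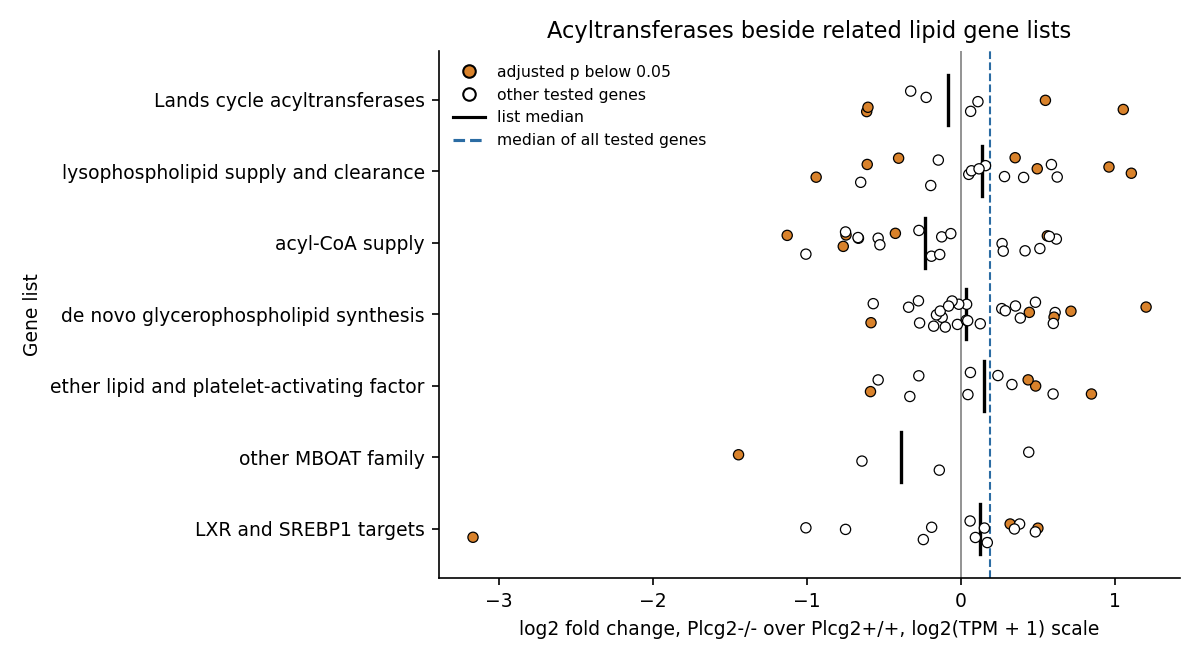
Log2 fold change, Plcg2-/- over Plcg2+/+, of each tested gene in the acyltransferase family and 6 related lipid gene lists, filled where the limma adjusted p was below 0.05, with a black bar at each list's median and a dashed line at the median of all tested genes. Mboat1, at 1.06, lies farthest from 0 among the acyltransferases, and Dgat1 lies at -1.44 and Lpl at -3.17.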

How the data were processed

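RNA of 6 libraries (3 per genotype, groups and replicate numbers from the titles) was analysed from 1 table of TPM that the authors deposited, with a column per sample summing to 1000000. Per the labels' protocols, polyA-selected libraries were sequenced paired-end at 150 bp to a stated depth of about 20 M reads. The submitters' processing notes name GRCm38.p6, R 4.0.4, Salmon 1.3.0 and DESeq2 1.30.1; annotation release and the role of each tool: not given in the sources used here. TPM keeps no depth, so no count model was fitted.

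The 12652 genes that averaged 1 TPM or more across libraries were compared between genotypes on log2(TPM + 1), which understates changes of low genes, using limma 3.58.1 (R 4.3.3; two-sided test, prior variance following the mean, Benjamini-Hochberg adjustment over all tested genes, threshold 0.05). The script was tested on simulated data. Tables were handled with Python 3.11.15, pandas 2.3.3, numpy 2.4.6 and scipy 1.17.1, and drawn with matplotlib 3.10.9. Positions are from GENCODE M21 (GRCm38) and promoter sequences from RefSeq (GRCm38.p6). Proteins were not analysed here.

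Deviations from genotype means correlated at 0.295, 0.193 and 0.147 between same-numbered libraries, all above 0.1. Numbers were therefore treated as pairs in the replicate block fits, which are alternatives. Each such pair also differed in Y-linked level. The main fit is unblocked and its p-values are unpaired, since no label ties a number to a litter. Named genes were the 9 members, Plcg2, up to 4 called genes per list with the smallest p, the 3 genes most like each called member, and neighbours starting within 5000 bases; other genes were named beside them for their role after their values were seen. One gene that this rule names is not reported here. Members and lists were chosen with earlier results of these data known. Alternatives were other pseudocounts (0.1 and 0.5), filters, scalings and prior variances, the replicate block, a Y-linked covariate and leaving out each library.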

Additional observations from a re-analysis of the deposited data

How the results depend on the processing

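Of 18 alternatives for each of the 4 acyltransferases that passed, Lpcat1 and Mboat1 passed in 14, Mboat7 in 11 and Lpcat2 in 7, with the direction kept in 18 of 18 for each. The 2 higher genes became 1 (Mboat1) with no filter on low values, with quantile normalization, with median-of-ratios scaling, without mitochondrially encoded genes and with the Y-linked covariate, 0 with both the replicate block and median-of-ratios scaling, and 0 to 2 without 1 library. The 2 lower genes became 1 with no filter (Lpcat1), 0 with the Y-linked covariate and 0 to 2 without 1 library. With the replicate block alone 2 were higher and 2 lower, the same genes, and it changed no other member's call; pseudocounts, prior variances and a mean TPM of at least 5 changed none either. The cause of each change was not tested.

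Lclat1 turned from 0.06 to -0.123 (median-of-ratios scaling, with or without the block), -0.0664 (quantile), -0.0519 (without mitochondrial genes) and lay at -0.0514 to 0.201 without 1 library. Lpgat1 turned from 0.11 to -0.0895, -0.0875 and -0.0125 under the same settings and reached -0.0450 to 0.233 without 1 library, and Lpcat3 lay at -0.40 to 0.0428, positive without Plcg2-/- 2, and at -0.44 with both the replicate block and median-of-ratios scaling (limma adjusted p = 0.0664). Without any 1 library the share differences of Lpcat1, Lpcat2 and Mboat7 kept their sign, and that of Lpcat3 ranged from -7.12 to 0.238 percentage points. The difference in mitochondrial share was -9.14 to -7.03 points without 1 library, an alternative chosen after seeing the data. List counts, higher and lower, also moved by over 1.5 times under settings not given with the lists. With the Y-linked covariate they were 2 and 1 for lysophospholipid, 0 and 3 for acyl-CoA, 2 and 0 for de novo, 0 and 0 for ether lipid and 0 and 1 for LXR and SREBP1 genes. With no filter they were 2 and 1, 0 and 3, 2 and 0, 2 and 1, and 1 and 1 in that order, and with a constant prior variance 2 and 1, 0 and 4, 3 and 1, 2 and 1, and 0 and 1. Quantile normalization gave 2 and 4, 0 and 9, 2 and 4, 0 and 1, and 0 and 3, and rescaling without mitochondrially encoded genes 2 and 3, 0 and 4, 2 and 1, 0 and 1, and 0 and 1. Block and median-of-ratios scaling together gave 3 and 4, 0 and 8, 2 and 3, 1 and 1, and 0 and 3. A mean TPM of at least 5 gave 3 higher acyl-CoA genes and a robust prior variance 2, and the latter 1 higher LXR and SREBP1 gene. Over all 12652 tested genes the Y-linked covariate called 842 higher and 375 lower. A constant prior variance called 1710 and 651, a robust one 2017 and 686, quantile normalization 959 and 1031, and block with median-of-ratios scaling 1104 and 1127. Of 26346 genes with no filter the counts were 1226 and 500. They were 1223 and 803 of 12637 without mitochondrially encoded genes, and 2016 and 568 of 9263 at a mean TPM of at least 5. Of other MBOAT genes 2 were lower with each scaling, with a mean TPM of at least 5 and without Plcg2+/+ 3. Depth is unknown, which limits what can be said of Mboat2.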
